A study of Mus musculus with 6 samples.

Results

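The respiratory chain genes were the 90 genes, of the 27998 in the count tables, whose symbols mark them as mitochondrially encoded (mt-) or as nuclear encoded subunits of complex I (Nduf with a, b, c, s or v), complex II (Sdha to Sdhd), complex III (Uqcr), complex IV (Cox4 to Cox8) or complex V (Atp5). Of these, 13 are encoded by mitochondrial DNA and 77 by nuclear DNA. The 8 paralogous isoform genes of complex IV (Cox4i1, Cox4i2, Cox6a1, Cox6a2, Cox7a1, Cox7a2, Cox8a and Cox8b) were left out by the rule, as were assembly factors. The members were picked by symbol and not by a cut on any measured value. Earlier results of these data were known when the rule was chosen. Complexes were assigned by symbol prefix.

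The respiratory chain passes electrons from NADH (complex I) and succinate (complex II) through complex III to oxygen at complex IV, and complex V, the ATP synthase, uses the resulting proton gradient to make ATP. Complexes I, III, IV and V combine subunits made inside the mitochondrion from mitochondrial DNA with subunits that are encoded in the nucleus and imported, whereas complex II is nuclear encoded as a whole. The heart relies on this machinery more than most tissues, and CMs move from glycolysis towards oxidation of fatty acids in the days around birth.

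CMs had been isolated from left ventricles of C57BL/6J mice at E16.5, P1 and P5, fixed in methanol, stained for MYH1 and sorted by Hoechst signal into diploid (2n) and tetraploid (4n) cells. This gave 6 libraries, 1 of 2n and 1 of 4n CMs at each age, and every library pooled the cells of 3 sorts, each from another litter, which the 2n and 4n libraries of an age share. No transgene or treatment is named for these mice. The 4n gate takes CMs with 2 diploid nuclei together with mononucleated CMs that have replicated their DNA, and litters of the ages came from different breeding pairs, so that age, litter and library cannot be told apart.

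In droplet-based scRNA-seq a tag called UMI, read with the 3′ end of a transcript, marks each RNA molecule that was captured, so that UMIs count molecules and were not divided by transcript length. Cells with at least 1 UMI of each of Tnni3, Tnnt2, Tnnc1 and Actc1 were taken as CMs, which kept 30733 of 31156 cells. A library held between 3654 and 7340 CMs and between 13070343 and 19665830 UMIs. Levels are UMIs per 1000000 UMIs of all CMs of a library (CPM). Ratios are given as log2 with an exact binomial 95% interval, which covers counting error only. With 1 library per group no spread between replicates exists, no test was made and no p-value is given. Genes are described as higher or lower where their CPM ratio passed 1.5-fold, among genes with at least 100 UMIs in both libraries together, and the share of all such genes that did so is given as background.

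The 10 CM markers were found in every library, at a summed 41440 (E16.5-4n) to 54601 CPM (P1-2n). Tnni3, Tnnt2, Tnnc1 and Actc1 are among them, and their presence was required by the CM filter. Markers of other cell types were not absent. The 8 fibroblast genes summed to 133, 142 and 263 CPM in 2n CMs at E16.5, P1 and P5 and to 796, 947 and 360 CPM in 4n CMs. For the 8 endothelial genes these sums were 111, 257 and 451 CPM in 2n CMs and 277, 738 and 472 CPM in 4n CMs. Both sums thus lay above those of 2n CMs in the 4n CMs of each age. The 8 mural genes, Acta2 among them, summed to 742 to 1830 CPM. For 8 immune genes this was 9.79 to 36.9 CPM, and for 6 epicardial genes 3.34 to 21.2 CPM. Ptprc in E16.5-2n, Vtn in P1-2n and the epicardial genes Upk1b and Lrrn4 in E16.5-2n were at 0, as was Lrrn4 in P1-2n. Erythroid genes summed to 10327 CPM in E16.5-4n and to 1649 to 5125 CPM in the other libraries. In all, 486 CM barcodes occurred in more than 1 library, and without them the log2 ratio of the mitochondrial set from E16.5 to P1 was 0.97 in 2n CMs and 1.04 in 4n CMs, as with them.

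The mitochondrially encoded genes made up about the same share of UMIs in 2n and 4n CMs at each age, and a far larger share after birth. The 13 genes summed to 82763 CPM in 2n and 81643 CPM in 4n CMs at E16.5, to 162634 and 168028 CPM at P1, and to 177152 and 180163 CPM at P5. Both P1 libraries and both P5 libraries thus lay above both E16.5 libraries. From E16.5 to P1 the log2 ratio of the sum was 0.97 (0.97 to 0.98) in 2n CMs and 1.04 (1.04 to 1.04) in 4n CMs. From P1 to P5 it was 0.12 and 0.10. The 77 nuclear genes summed to 112246 and 103809 CPM at E16.5, to 142107 and 134699 CPM at P1 and to 157003 and 152418 CPM at P5, with log2 ratios of 0.34 and 0.38 from E16.5 to P1 and 0.14 and 0.18 from P1 to P5. The ratio of mitochondrial to nuclear UMIs was 0.737, 1.14 and 1.13 in 2n CMs at E16.5, P1 and P5 and 0.786, 1.25 and 1.18 in 4n CMs. The nuclear set was therefore the larger of the pair before birth and the smaller one at P1 and P5. This nuclear sum lacks the 8 complex IV isoform genes that the rule left out, and the order with them was not computed. In 2n CMs the 90 members together took 195009 CPM at E16.5 and 334154 CPM at P5.

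**Figure D1:**
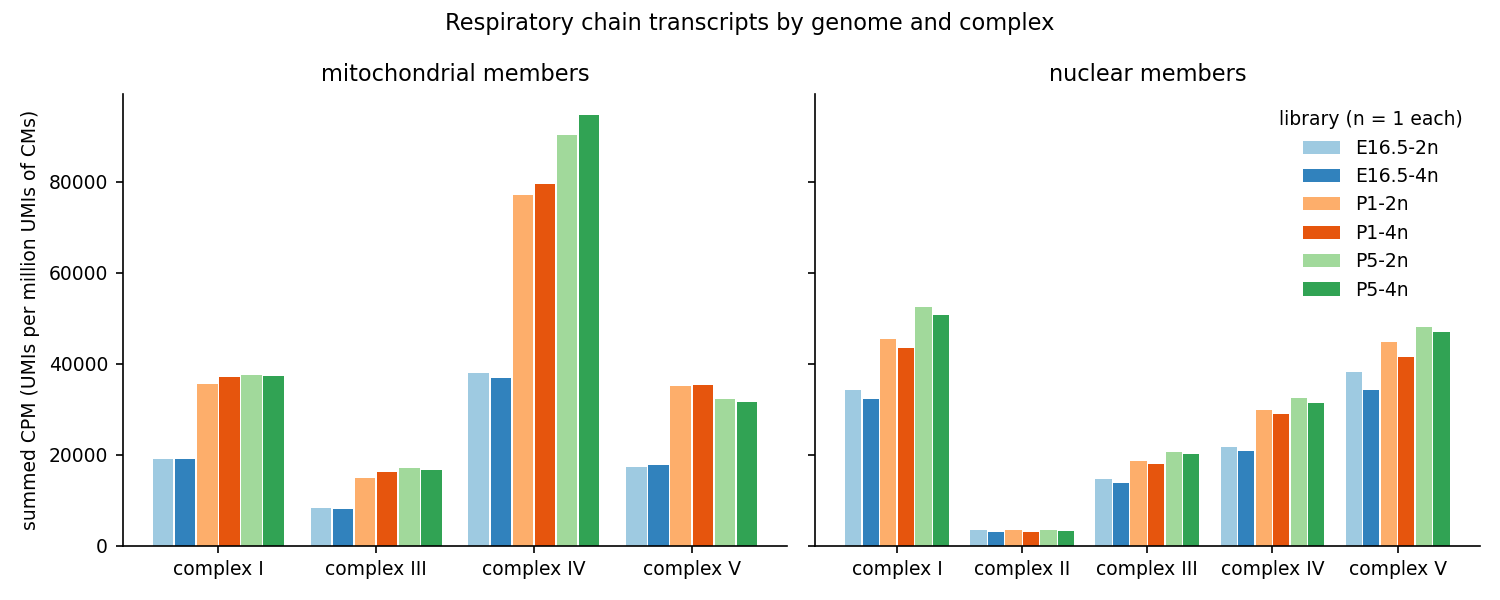
Summed CPM (UMIs per 1000000 UMIs of all CMs) of the mitochondrially encoded members (left) and the nuclear encoded members (right) of each complex, with 1 bar per library and both panels on the same axis from 0. Mitochondrial complex IV stands highest, between 36880 and 94653 CPM, and nuclear complex II lies between 2918 and 3530 CPM in the 6 libraries.

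By complex, the mitochondrial members of complex IV, the terminal oxidase, differed most between the ages. Their sum was 38007, 77031 and 90272 CPM in 2n CMs at E16.5, P1 and P5 and 36880, 79477 and 94653 CPM in 4n CMs, a log2 ratio of 1.25 from E16.5 to P5 in 2n CMs and of 1.36 in 4n CMs. Mitochondrial complex I summed to 19075, 35644 and 37580 CPM in 2n CMs and to 19057, 37161 and 37344 CPM in 4n CMs, so that nearly all of its difference lay before P1. Complex III has a lone mitochondrial member, mt-Cytb, with 8315 and 7952 CPM at E16.5, 14792 and 16131 CPM at P1 and 16981 and 16640 CPM at P5. Mitochondrial complex V had its highest sums at P1 (35167 and 35259 CPM) and was lower at P5 (32320 and 31527 CPM), with log2 ratios from P1 to P5 of -0.12 in 2n CMs and -0.16 in 4n CMs, which were 0.01 and -0.04 with median-of-ratios scaling. Relative to a total without the mt- genes they were -0.10 and -0.14, and the log2 ratio of the mitochondrial set from E16.5 to P1 was 1.11 and 1.18.

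The nuclear members of the same complexes differed less between E16.5 and either later age. From P1 to P5 this did not hold for complex I, where the nuclear log2 ratios were 0.21 and 0.23 and the mitochondrial ones 0.08 and 0.01. Nor did it hold for complex III in 4n CMs, with 0.17 against 0.04. In complex V the nuclear and mitochondrial ratios went opposite ways, with 0.10 against -0.12 in 2n CMs and 0.18 against -0.16 in 4n CMs. With median-of-ratios scaling these were 0.23 against 0.01 and 0.30 against -0.04. Nuclear complex I summed to 34149, 45386 and 52422 CPM in 2n CMs at E16.5, P1 and P5 and 32215, 43451 and 50789 CPM in 4n CMs. Nuclear complex III summed to 14745 and 13685 CPM at E16.5 and to 20689 and 20104 CPM at P5, nuclear complex IV to 21603 and 20855 CPM at E16.5 and to 32521 and 31388 CPM at P5. Nuclear complex V summed to 38219 and 34135 CPM at E16.5 and to 48021 and 46917 CPM at P5. The log2 ratios from E16.5 to P5 in 2n and 4n CMs were 0.62 and 0.66 for complex I, 0.49 and 0.55 for complex III, 0.59 and 0.59 for complex IV and 0.33 and 0.46 for complex V. Complex II, the succinate dehydrogenase, stood apart with 3530, 3470 and 3350 CPM in 2n CMs at E16.5, P1 and P5 and 2918, 3014 and 3220 CPM in 4n CMs. Its log2 ratio from E16.5 to P5 was -0.08 in 2n CMs and 0.14 in 4n CMs, which were 0.08 and 0.31 relative to a total without the mt- genes and 0.35 and 0.57 with median-of-ratios scaling. The comparison of E16.5 with P5 was added after values of the single steps had been seen, and it uses the same libraries as these steps.

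The mitochondrial to nuclear ratio differed between complexes. In complex V it was 0.454, 0.786 and 0.673 in 2n CMs at E16.5, P1 and P5 and 0.520, 0.851 and 0.672 in 4n CMs, and thus was highest at P1. In complex I it was 0.559, 0.785 and 0.717 in 2n CMs, while 4n CMs had 0.592, 0.855 and 0.735, also highest at P1. In complex IV it was 1.76, 2.58 and 2.78 in 2n CMs, while 4n CMs had 1.77, 2.75 and 3.02, highest at P5. The nuclear part of complex IV lacks the 8 isoform genes that the rule left out. Ndufa4, since assigned to complex IV, counts under complex I by its prefix. The complex IV ratio with these genes was not computed, and its level is not directly comparable with those of the other complexes. In complex III, of which mt-Cytb is the mitochondrial part, it was 0.564, 0.795 and 0.821 in 2n CMs, while 4n CMs had 0.581, 0.902 and 0.828. Within each age these ratios were higher in 4n than in 2n CMs, except for complex V at P5.

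Among the mitochondrial genes, 11 of 13 were higher by 1.5-fold from E16.5-2n to P1-2n, where 4.81% of the 9391 genes tested were higher and 31.4% lower. From E16.5-4n to P1-4n, 12 of 13 were higher, against 6.56% of 9958 genes. The remaining gene, mt-Nd6, was lower, from 151 and 137 UMIs, as were 30.4% of all genes tested. The median log2 ratio of all genes tested was -0.34 and -0.30, and as CPM are shares of 1 total, the values of single genes are to be read against it. With median-of-ratios scaling, which adds 0.30 to every log2 ratio in 2n and in 4n CMs, 11.1% of all genes were higher and 16.1% lower in 2n CMs against 14.2% and 15.4% in 4n CMs.

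The catalytic core of complex IV is formed by mt-Co1, mt-Co2 and mt-Co3. mt-Co1, which carries the heme and copper site that reduces oxygen, had 9944, 22324 and 30300 CPM in 2n CMs at E16.5, P1 and P5 and 10097, 23997 and 33669 CPM in 4n CMs. Its level rose with each later age in 2n and in 4n CMs, with log2 ratios of 1.17 and 1.25 from E16.5 to P1 and of 0.44 and 0.49 from P1 to P5. The ratios from P1 to P5 were under the 1.5-fold limit. Its share of all mt- UMIs was 12.0%, 13.7% and 17.1% in 2n CMs, while 4n CMs had 12.4%, 14.3% and 18.7%. mt-Co3 had 19072 and 17775 CPM at E16.5, 37689 and 38556 CPM at P1 and 42641 and 43570 CPM at P5. mt-Co2, which takes up the electrons from cytochrome c, had 8991 and 9008 CPM at E16.5, 17018 and 16924 CPM at P1 and 17330 and 17414 CPM at P5, so that it stayed near its P1 level. Of the 13 genes, mt-Co1 thus had the highest log2 ratio from E16.5 to P5, 1.61 in 2n and 1.74 in 4n CMs, against 0.95 in both for mt-Co2.

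Of the 7 mitochondrial subunits of complex I, which form its proton-pumping membrane arm, mt-Nd1 was the most abundant, with 10062 and 10344 CPM at E16.5, 20172 and 21009 CPM at P1 and 19103 and 18868 CPM at P5. mt-Nd5 had 610, 1010 and 1638 CPM in 2n CMs at E16.5, P1 and P5 and 625, 1046 and 1637 CPM in 4n CMs. It was the lone mitochondrial gene that was higher by 1.5-fold from P1 to P5, with log2 ratios of 0.70 (0.67 to 0.73) and 0.65 (0.62 to 0.67), and with median-of-ratios scaling mt-Co1 passed as well in 4n CMs, at 0.61. Of all genes tested, 7.27% in 2n and 5.14% in 4n CMs were higher at this step, so that 1 of 13 lay near that share. With median-of-ratios scaling the share in 4n CMs was 7.15%. mt-Nd2 differed less from E16.5 to P1 than the others of complex I except mt-Nd6, with 2551 and 2424 CPM at E16.5 and 3747 and 3969 CPM at P1, log2 ratios of 0.55 and 0.71. mt-Nd3, mt-Nd4 and mt-Nd4l had log2 ratios from E16.5 to P1 between 0.81 and 1.14. mt-Nd6, the only one of the 13 that is encoded on the other strand, had 8.07, 10.1 and 10.7 CPM in 2n CMs and 11.6, 6.97 and 7.55 CPM in 4n CMs, from 118 to 191 UMIs. Its log2 ratio from E16.5 to P1 was 0.32 (-0.03 to 0.68) in 2n CMs and -0.73 (-1.07 to -0.39) in 4n CMs. The call in 4n CMs ended with median-of-ratios scaling (-0.42) and with a total without the 50 most abundant genes (-0.49). How well libraries read from the 3′ end capture mt-Nd6 was not tested.

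The mitochondrial genome encodes the membrane subunits mt-Atp6 and mt-Atp8 of complex V on overlapping reading frames. mt-Atp6, which forms the proton channel with the c ring, had 17240 and 17610 CPM at E16.5, 34891 and 35037 CPM at P1 and 31961 and 31237 CPM at P5. mt-Atp8 had 126, 276 and 359 CPM in 2n CMs at E16.5, P1 and P5 and 145, 222 and 289 CPM in 4n CMs. Its log2 ratio from E16.5 to P1 was 1.14 in 2n CMs and 0.62 in 4n CMs, the widest gap between the ploidies at this step among the mitochondrial genes except mt-Nd6. A read inside the 43 bases that both genes share cannot be told apart between them, and these bases are shown since they bear on the counts of mt-Atp8, whose whole gene spans 204 bases. They lie at chrM:7927-7969 of GRCm38 on the plus strand, and are printed in lower case with no part marked.

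mt-Atp8 and mt-Atp6 overlap: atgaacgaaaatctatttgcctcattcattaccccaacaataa

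Further overlaps are shorter, 7 bases between mt-Nd4l and mt-Nd4, 1 base between mt-Atp6 and mt-Co3, and 14 bases between mt-Nd5 and mt-Nd6 on opposite strands. The UMIs were counted by strand and read near the 3′ end of a transcript. How far the counts of mt-Atp8 and mt-Nd4l stand apart from those of mt-Atp6 and mt-Nd4 was not tested.

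**Figure D2:**
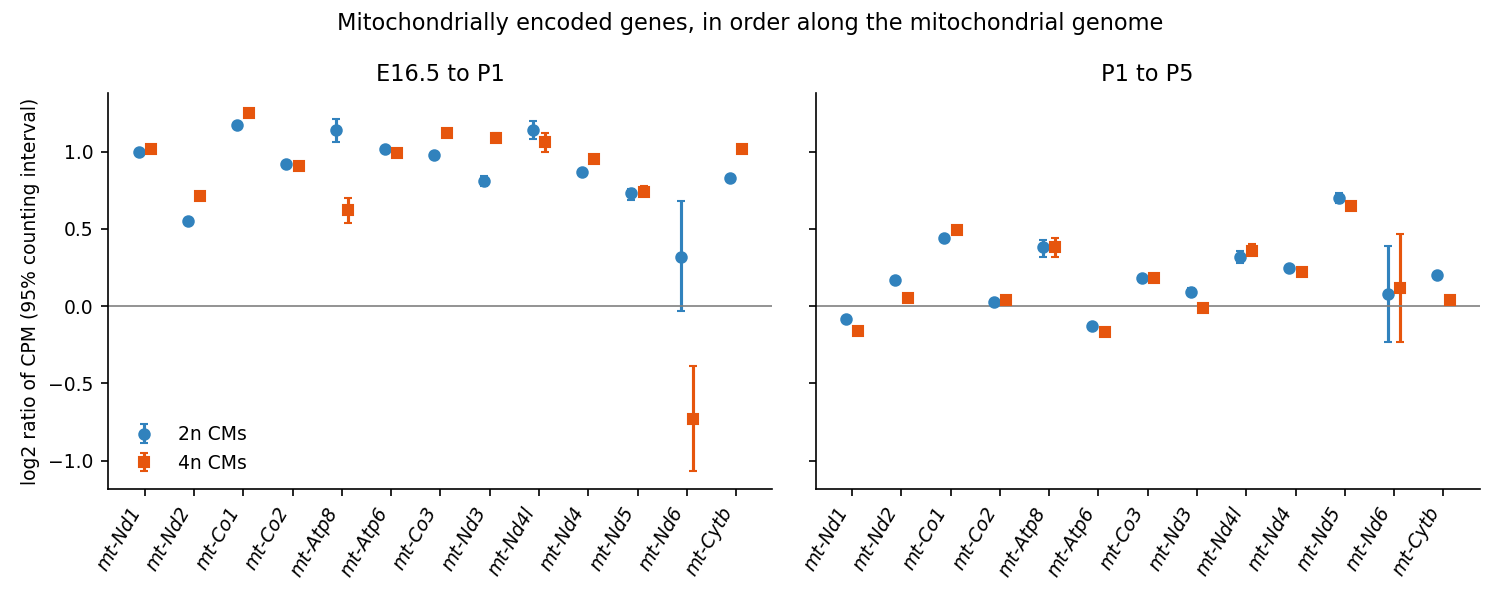
Log2 ratio of CPM of each of the 13 mitochondrially encoded genes, in their order along the mitochondrial genome, from E16.5 to P1 (left) and from P1 to P5 (right), for 2n CMs (circles) and 4n CMs (squares), with 95% counting intervals as bars. From E16.5 to P1 all ratios but that of mt-Nd6 in 4n CMs lie above 0, and from P1 to P5 mt-Nd5, mt-Co1, mt-Atp8 and mt-Nd4l lie highest while mt-Nd1 and mt-Atp6 lie below 0 in both ploidies, where median-of-ratios scaling puts the 2n ratios at 0.05 and 0.00 and the 4n ratios at -0.03 and -0.04.

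Of the 77 nuclear members, 75 had at least 100 UMIs in every comparison. The other two were complex IV isoforms: Cox8c had 0 UMIs in all CMs, and Cox7b2 had 2 to 6 UMIs per library. From E16.5-2n to P1-2n, 7 of the 75 were higher by 1.5-fold and 1 was lower, and from E16.5-4n to P1-4n, 10 were higher and 1 was lower, against the background of 4.81% and 6.56% higher and 31.4% and 30.4% lower given above. In percent, the members higher were 9.33% and 13.3% of those tested. The median log2 ratio of the nuclear members was 0.29 in 2n CMs and 0.34 in 4n CMs, and 74 of 75 lay above the median of all genes in each. With median-of-ratios scaling the numbers higher were 39 and 44, where 11.1% and 14.2% of all genes were higher. The 7 genes that were higher in 2n CMs were all among the 10 in 4n CMs: Cox5a, Ndufa1, Ndufa3, Ndufb9, Ndufb10, Ndufb11 and Uqcrq, while Atp5g3, Ndufa6 and Ndufv3 passed in 4n CMs.

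From P1-2n to P5-2n no nuclear member was higher or lower by 1.5-fold, where 7.27% of 9230 genes were higher and 9.11% lower. From P1-4n to P5-4n, Cox6b2 was higher and Ndufa4l2 was lower, where 5.14% of 9764 genes were higher and 16.1% lower. The median log2 ratios of the members were 0.13 and 0.17, against -0.09 and -0.16 for all genes. Over both steps, from E16.5-2n to P5-2n, 28 of 75 members were higher and 1 was lower, where 6.55% of all genes were higher and 40.3% lower. From E16.5-4n to P5-4n, 32 were higher and 1 was lower, against 5.71% and 44.5%. The median of the members was 0.44 and 0.52, and that of all genes -0.45 and -0.51. With median-of-ratios scaling, 56 and 63 members were higher, and of all genes 16.2% were higher and 16.3% lower in 2n CMs against 14.4% and 20.4% in 4n CMs.

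**Figure D3:**
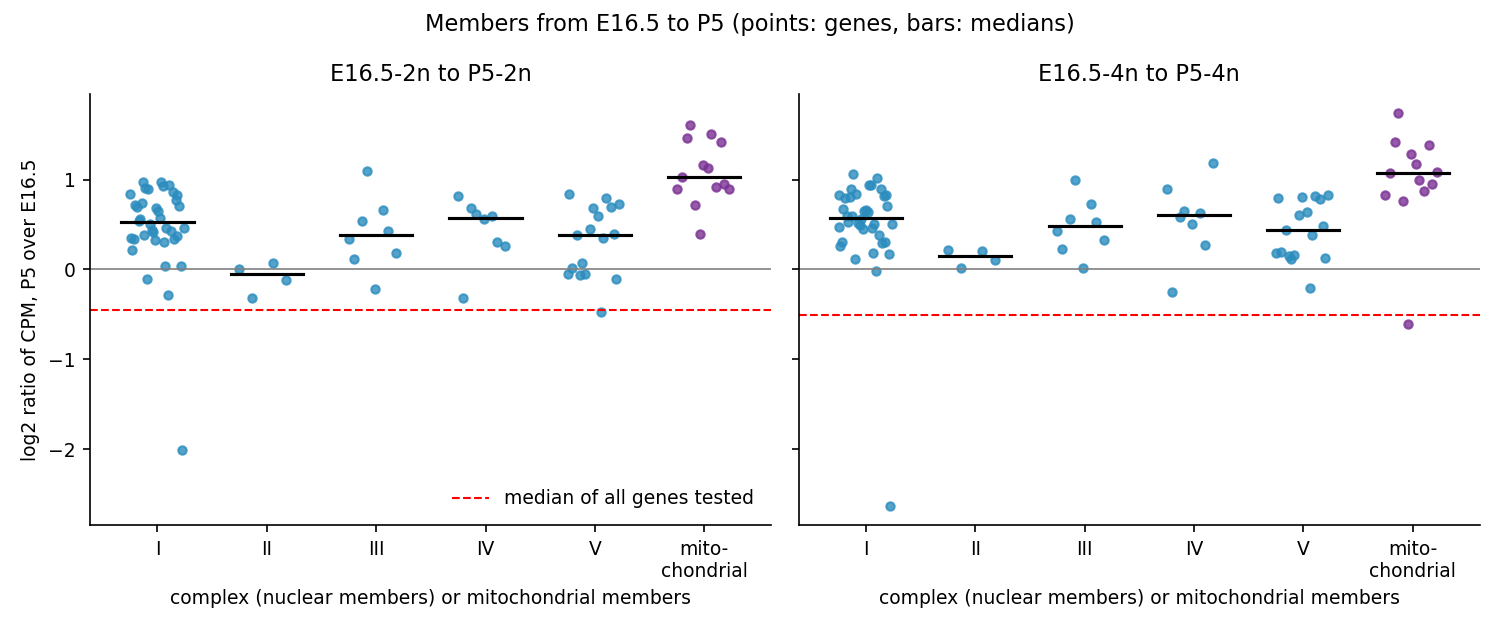
Log2 ratio of CPM from E16.5 to P5 for each member tested, by complex for the nuclear members (blue) and for the mitochondrial members together (purple), in 2n CMs (left) and 4n CMs (right), with the group median as a black bar and the median of all genes tested as a dashed red line. The nuclear medians lie above the dashed line of -0.45 and -0.51 in every complex, complex II lies nearest to 0, and the point far below the others is Ndufa4l2.

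The nuclear members of complex I include 7 subunits that carry the flavin and the iron-sulfur clusters and are shared with bacteria (such as Ndufs1 and Ndufv1), and accessory subunits around them. The 7 core subunits summed to 4379, 5075 and 4841 CPM in 2n CMs at E16.5, P1 and P5 and 3748, 4550 and 4668 CPM in 4n CMs. The other 31 summed to 29770, 40311 and 47580 CPM in 2n CMs and to 28468, 38901 and 46121 CPM in 4n CMs. The log2 ratio from E16.5 to P5 was 0.14 and 0.32 for the core and 0.68 and 0.70 for the others in 2n and 4n CMs. Of the core, 0 of 7 were higher by 1.5-fold in 2n CMs and 1 of 7 (Ndufv2) in 4n CMs, and of the others 16 of 31 and 18 of 31 were. Of all genes tested, 6.55% and 5.71% were higher over this span. The counts of the 7 core genes are too small to set them apart from that share.

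Ndufs1, the largest core subunit, had 485, 468 and 395 CPM in 2n CMs at E16.5, P1 and P5 and 371, 370 and 366 CPM in 4n CMs. Its levels thus lay close together except in the 2n libraries of E16.5 and P1, and its log2 ratio from E16.5 to P5 was -0.29 (-0.34 to -0.25) in 2n CMs and -0.02 (-0.08 to 0.03) in 4n CMs. The first of these turned to 0.13 with median-of-ratios scaling. Ndufs3 and Ndufv1, which binds NADH, had log2 ratios between 0.04 and 0.18 over the same span. Ndufs7 and Ndufs8 had 0.44 and 0.35 in 2n CMs against 0.49 and 0.47 in 4n CMs.

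Among the accessory subunits, Ndufb10 had 1265, 2035 and 2375 CPM in 2n CMs at E16.5, P1 and P5 and 1123, 1805 and 2348 CPM in 4n CMs. Its log2 ratio from E16.5 to P5 was 0.91 (0.88 to 0.93) and 1.06 (1.04 to 1.09), and all P1 and P5 levels lay above both E16.5 levels. Ndufa3 had 877 and 811 CPM at E16.5 and 1679 and 1641 CPM at P5. Ndufb9 had 1426 and 1359 CPM at E16.5, 2342 and 2176 CPM at P1 and 2430 and 2399 CPM at P5, so that most of its difference lay before P1. Ndufb7 and Ndufa11 were among the highest from P1 to P5, with log2 ratios of 0.55 and 0.52 in 2n CMs against 0.56 and 0.41 in 4n CMs, after 0.37 and 0.45 in 2n CMs against 0.38 and 0.49 in 4n CMs from E16.5 to P1. Ndufb2 had 0.43 in both from P1 to P5. Ndufa5 had 1358 and 1385 CPM at E16.5 and 2665 and 2664 CPM at P5. Ndufab1, which also serves as the mitochondrial acyl carrier protein, had log2 ratios from E16.5 to P5 of 0.46 and 0.51. Ndufa4, named for complex I but since assigned to complex IV, had the highest CPM of this prefix, with 2921 and 2943 CPM at E16.5, 4215 and 4082 CPM at P1 and 5417 and 5280 CPM at P5.

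Ndufa4l2, a paralog of Ndufa4 known as a target of hypoxia-inducible factors and as a gene of pericytes, went against the other members. It lies at chr10:127514967-127517154 of GRCm38 on the plus strand. It had 14.6, 2.86 and 3.63 CPM in 2n CMs at E16.5, P1 and P5 and 26.6, 15.2 and 4.29 CPM in 4n CMs, from 213, 47 and 65 UMIs in 2n CMs and 348, 298 and 79 UMIs in 4n CMs. The log2 ratio from E16.5 to P1 was -2.35 (-2.84 to -1.89) in 2n CMs and -0.81 (-1.04 to -0.59) in 4n CMs, and at P1 it was higher in 4n than in 2n CMs by 2.41 (1.96 to 2.88). Many of its UMIs lay in CMs that also held UMIs of mural genes. In P1-4n, 80.2% of its UMIs lay in the 36.3% of CMs that also held a UMI of a mural marker other than Acta2. In E16.5-2n 23.9% lay in 12.5% of CMs. These are shares of UMIs and of cells, which differ in depth. Relative to the UMIs of the same CMs, Ndufa4l2 had 26.0 CPM with and 5.62 CPM without such a marker in P1-4n. In E16.5-2n it had 21.8 and 13.2 CPM. The part of CMs with mural UMIs in the difference was not tested. The mural genes together, here with Acta2, summed to 1830 CPM in 2n and 1544 CPM in 4n CMs of E16.5. In the later libraries they summed to 742 to 790 CPM, and their sum without Acta2 was not computed. In CMs without a UMI of any of 35 markers of other cell types, Ndufa4l2 had 12.0, 1.43 and 1.25 CPM in 2n CMs at E16.5, P1 and P5 and 11.9, 1.98 and 0.757 CPM in 4n CMs, from 121, 15 and 10 UMIs in 2n CMs and 71, 9 and 5 UMIs in 4n CMs. The 35 markers were the fibroblast, endothelial, immune, mural and epicardial genes without Acta2, Fabp4 and Npr3, and include no erythroid gene. In CMs without these markers the E16.5 libraries still lay above those of P1 and P5. The levels of 2n and 4n CMs there lay close together at E16.5 and P1. Counts in these CMs were mostly under the minimum of 100 UMIs.

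In complex II, Sdha carries the flavin, Sdhb the iron-sulfur clusters, and Sdhc and Sdhd anchor the enzyme in the membrane. Sdha had 827, 959 and 835 CPM in 2n CMs at E16.5, P1 and P5 and 679, 785 and 791 CPM in 4n CMs. Sdhb had between 873 and 1062 CPM. Sdhc had 850 and 692 CPM at E16.5 and 679 and 702 CPM at P5, and Sdhd 839 and 674 CPM at E16.5 and 775 and 722 CPM at P5. None of the 4 passed 1.5-fold in any comparison, in either direction, although with median-of-ratios scaling Sdha and Sdhb did from E16.5-4n to P5-4n, at 0.65 and 0.63. Of all genes tested, 6.55% and 5.71% were higher and 40.3% and 44.5% lower from E16.5 to P5 without that scaling. From E16.5 to P1, Sdhd was the lowest of the tested nuclear members apart from Ndufa4l2, with log2 ratios of -0.21 and -0.11, and with median-of-ratios scaling no nuclear member except Ndufa4l2 lay below 0 at this step.

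In complex III, the core proteins Uqcrc1 and Uqcrc2 and the Rieske iron-sulfur protein Uqcrfs1 differed from the small subunits. Uqcrc2 had 901, 867 and 772 CPM in 2n CMs at E16.5, P1 and P5 and 733, 716 and 746 CPM in 4n CMs. Uqcrc1 and Uqcrfs1 had log2 ratios from E16.5 to P5 of 0.18 and 0.12 in 2n CMs against 0.33 and 0.23 in 4n CMs. Uqcrq, a small subunit of the membrane part, had 1485, 2443 and 3178 CPM in 2n CMs at E16.5, P1 and P5 and 1419, 2370 and 2831 CPM in 4n CMs. Its log2 ratio from E16.5 to P5 was 1.10 (1.07 to 1.12) in 2n CMs, the highest of the nuclear members there, and 1.00 (0.97 to 1.02) in 4n CMs. Uqcrh, Uqcrb and Uqcr11, the most abundant of the complex, had log2 ratios between 0.43 and 0.73.

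In complex IV, Cox6c had 5698 and 5612 CPM at E16.5, 8412 and 8219 CPM at P1 and 8386 and 8002 CPM at P5, and Cox7c had 4602, 6118 and 7069 CPM in 2n CMs and 4452, 6062 and 6966 CPM in 4n CMs. Cox5a, a subunit on the matrix side, had 3603, 5595 and 6379 CPM in 2n CMs at E16.5, P1 and P5 and 3417, 5175 and 6391 CPM in 4n CMs, a log2 ratio from E16.5 to P5 of 0.82 and 0.90. Cox7a2l, which takes part in joining complexes III and IV into supercomplexes, lay lower at P5, with 656 and 628 CPM at E16.5, 678 and 605 CPM at P1 and 525 and 526 CPM at P5. Its log2 ratios over this span, -0.32 and -0.25, were 0.11 and 0.17 with median-of-ratios scaling.

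Cox6b2, known as the testis isoform of subunit VIb, set P5-4n apart from the other libraries. It lies at chr7:4751792-4753094 of GRCm38 on the minus strand. It had 19.6, 21.5 and 23.5 CPM in 2n CMs at E16.5, P1 and P5 and 22.3, 26.1 and 50.7 CPM in 4n CMs, from 287, 353 and 422 UMIs in 2n CMs and 291, 514 and 933 UMIs in 4n CMs. All levels but that of P5-4n thus lay between 19.6 and 26.1 CPM. At P5 the log2 ratio of 4n to 2n CMs was 1.11 (0.94 to 1.28), and from P1-4n to P5-4n it was 0.96 (0.80 to 1.11). In CMs without UMIs of the 35 markers of other cell types the levels at P5 were 22.4 CPM in 2n and 51.7 CPM in 4n CMs. The somatic isoform Cox6b1 had 4084 CPM in 2n and 3739 CPM in 4n CMs of P5.

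In complex V, the catalytic F1 head of 5 subunits (Atp5a1, Atp5b, Atp5c1, Atp5d and Atp5e) summed to 13948, 14398 and 13193 CPM in 2n CMs at E16.5, P1 and P5 and 11501, 12602 and 12648 CPM in 4n CMs, whereas the other 12 members summed to 24271, 30336 and 34828 CPM in 2n CMs and to 22634, 28827 and 34269 CPM in 4n CMs. The log2 ratio from E16.5 to P5 was -0.08 and 0.14 for F1 and 0.52 and 0.60 for the others, and median-of-ratios scaling, which adds 0.43 to each of these 4 values, turns the sign of the first. Atp5b, the catalytic beta subunit, had 6172, 5785 and 4453 CPM in 2n CMs at E16.5, P1 and P5 and 4953, 4795 and 4272 CPM in 4n CMs. It was lowest at P5 in either ploidy, with log2 ratios from E16.5 to P5 of -0.47 (-0.48 to -0.46) and -0.21 (-0.23 to -0.20), under the 1.5-fold limit. With median-of-ratios scaling these were -0.04 and 0.21. Atp5a1 had 3127 and 2488 CPM at E16.5 and 3010 and 2821 CPM at P5, and Atp5c1, the gamma subunit of the central stalk, had 2010 and 1735 CPM at E16.5, 2357 and 2125 CPM at P1 and 1932 and 1921 CPM at P5. The small F1 subunits lay higher at P5, Atp5d with log2 ratios from E16.5 of 0.39 and 0.48 and Atp5e with 0.68 and 0.81.

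The c ring of complex V is built from 1 mature protein that Atp5g1, Atp5g2 and Atp5g3 all encode. Atp5g1 had 2364 and 2220 CPM at E16.5, 3243 and 3054 CPM at P1 and 4083 and 3932 CPM at P5. Atp5g3 had 1886, 2619 and 3137 CPM in 2n CMs and 1734, 2622 and 3085 CPM in 4n CMs. Atp5g2 had 1054, 1185 and 1020 CPM in 2n CMs and 980, 1222 and 1092 CPM in 4n CMs, so that its log2 ratio from P1 to P5 was -0.22 and -0.16 while those of the other two lay between 0.23 and 0.36. Atp5k and Atp5j, 2 abundant subunits of the membrane part and the stalk, had log2 ratios from E16.5 to P5 between 0.38 and 0.61. Atp5s and Atp5sl, which the prefix takes in but which are not structural subunits of the synthase, had 19.5 to 27.7 CPM in all libraries.

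The nuclear members with long coding sequences had lower median ratios from E16.5 to P5 than those with short ones. Coding lengths from the GENCODE annotation were known for all 77. From E16.5-2n to P5-2n the median log2 ratio was 0.60 over the 45 members with up to 500 coding bases, 0.35 over 19 members with 500 to 1000 bases and 0.01 over 11 members with more than 1000. For all other genes tested the medians over the same length classes were -0.34, -0.51 and -0.46. From E16.5-4n to P5-4n the members' medians were 0.64, 0.47 and 0.18 and those of other genes -0.33, -0.48 and -0.56. Spearman's rho of log2 ratio and coding length was -0.478 over 75 members and 0.0519 over 9215 other genes in 2n CMs, while 4n CMs had -0.473 and -0.0624. These are descriptions across genes, which share the libraries and are no independent replicates, and length goes together with role, as catalytic subunits such as Atp5a1, Atp5b, Ndufs1, Ndufv1 and Sdha are among the longer ones.

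**Figure D4:**
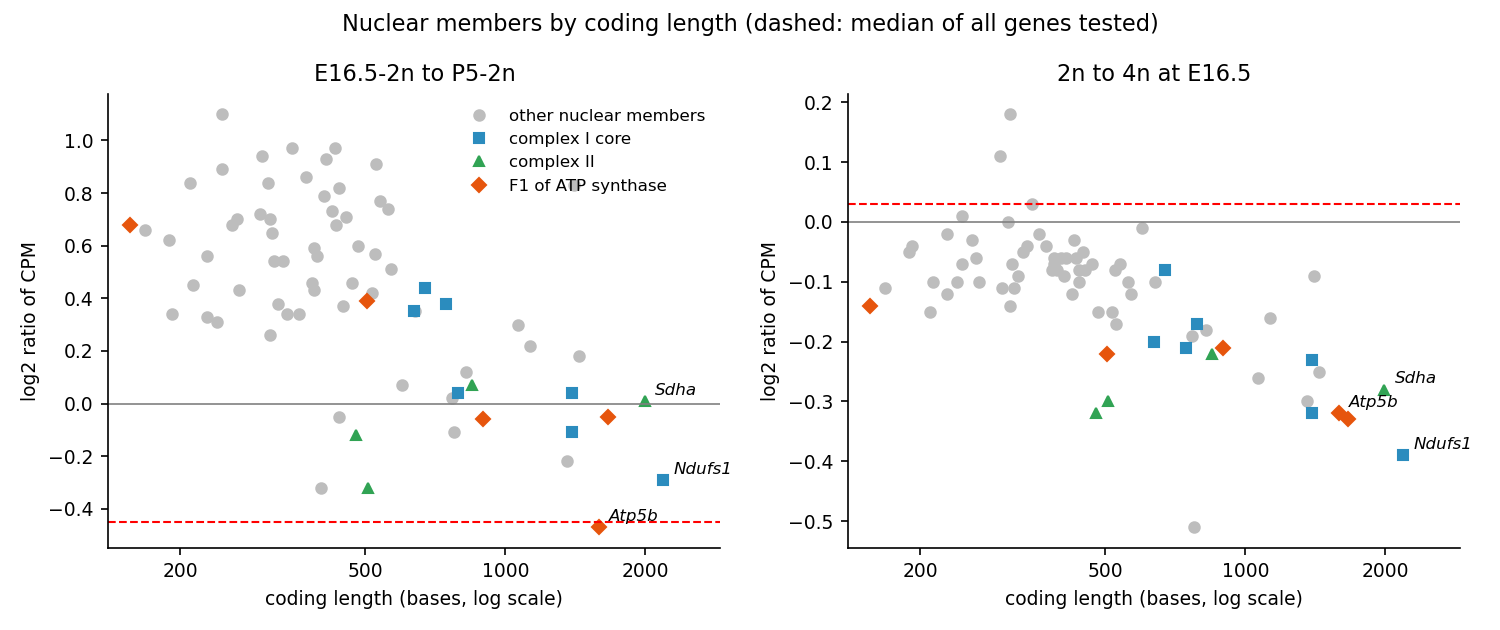
Log2 ratio of CPM against coding length (log axis) of the nuclear members tested, without Ndufa4l2, from E16.5-2n to P5-2n (left) and from 2n to 4n at E16.5 (right), with the complex I core as squares, complex II as triangles, F1 of ATP synthase as diamonds and the median of all genes tested as a dashed line. In both panels members over 1000 bases have a lower median than those under 500 bases, though their ranges overlap. Atp5b lies at -0.47 on the left and Ndufs1 at -0.39 on the right.

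Between 2n and 4n CMs of the same age the mitochondrial set differed little, with log2 ratios of 4n to 2n of -0.02 at E16.5, 0.05 at P1 and 0.02 at P5. The first turned to 0.02 in CMs without markers of other cells and the last to -0.01 with median-of-ratios scaling. None of the 13 genes passed 1.5-fold at any age, with mt-Nd6 and mt-Atp8 the farthest from 0. The sum of the nuclear set lay slightly lower in 4n CMs, by log2 ratios of -0.11 at E16.5, -0.08 at P1 and -0.04 at P5. At E16.5, 70 of the 75 nuclear members lay below 0, 60 did at P1 and 61 at P5, whereas the median of all genes was 0.03, 0.05 and 0.02. In CMs without UMIs of markers of other cell types the median log2 ratio of the nuclear members was -0.05 at E16.5, -0.01 at P1 and -0.06 at P5, against -0.10, -0.06 and -0.04 in all CMs, and that of all genes was -0.02, -0.02 and 0.02. The median of the nuclear members at P1 was thus no lower than that of all genes in these CMs. They were 1457 of the 4747 CMs of P1-4n and 5067 of the 7340 CMs of P1-2n. The median depth of all CMs was 3187 UMIs in P1-4n and 1831 UMIs in P1-2n. At E16.5 they were 2555 of 4880 CMs in 4n and 4251 of 5699 in 2n. The part of depth and of this unequal selection in these medians was not tested.

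At E16.5, Ndufa4l2 was the lone nuclear member higher in 4n CMs by 1.5-fold and none was lower, where 9.30% of 9625 genes were higher and 1.04% lower. At P1 it was again Ndufa4l2 and none was lower, where 9.61% of 9653 genes were higher and 0.290% lower. At P5, Cox6b2 was higher and none was lower, where 3.84% of 9349 genes were higher and 1.85% lower. In CMs without markers of other cell types no member was higher at E16.5, where 6.82% of 8127 genes were. At P1 Ndufa4l2 had too few UMIs in these CMs to be tested.

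The longest members had the lowest median ratios of 4n to 2n CMs here as well. At E16.5 the median log2 ratio of 4n to 2n was -0.28 over the 11 members with more than 1000 coding bases and -0.07 over the 45 with up to 500, and at P1 these were -0.25 and -0.03. Other genes over 1000 bases had medians of 0.08 and 0.07. At P5 the members' medians were -0.09 and -0.04. The log2 ratio of 4n to 2n at E16.5, P1 and P5 was -0.28, -0.19 and -0.06 for the F1 subunits, -0.22, -0.16 and -0.05 for the complex I core and -0.27, -0.20 and -0.06 for complex II. All 4 genes of complex II lay below 0 at E16.5 and at P1. Among single genes, the log2 ratio at E16.5 was -0.39 (-0.44 to -0.33) for Ndufs1, -0.33 (-0.35 to -0.31) for Atp5a1, -0.32 for Atp5b and -0.28 for Sdha. Atp5sl had the lowest value at E16.5, -0.51 (-0.74 to -0.28), from 405 and 255 UMIs. At E16.5 the erythroid sum was 5125 CPM in 2n and 10327 CPM in 4n CMs, and the sum of the fibroblast markers 133 and 796 CPM. At P1 the erythroid sum was 1895 and 2906 CPM, the fibroblast sum 142 and 947 CPM and the endothelial sum 257 and 738 CPM. The part of these in the ratios of 4n to 2n CMs was not tested. In CMs without UMIs of markers of other cell types these single-gene differences were not computed. Those markers include no erythroid gene, so that this filter does not take out CMs with erythroid UMIs.

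Across single CMs the mitochondrial share spread wider in percentage points after birth, where its median was also higher. The spread relative to the median was not computed. With each CM thinned to 1000 UMIs, which left out 906 shallower CMs, the median mitochondrial share was 8.20%, 16.3% and 17.7% in 2n CMs at E16.5, P1 and P5 and 8.0%, 16.7% and 18.1% in 4n CMs. Without thinning the medians were 8.21%, 16.5% and 17.7% in 2n CMs, while 4n CMs had 7.94%, 16.8% and 18.1%. The 5th and 95th percentiles of the thinned shares were 4.90% and 12.6% in E16.5-2n and 10.4% and 29.4% in P5-4n. The 95th percentile at E16.5 thus lay below the 25th percentile of each library at P1 and P5. The median share of the nuclear members was 11.3%, 14.3% and 15.7% in 2n CMs, while 4n CMs had 10.5%, 13.5% and 15.1%.

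**Figure D5:**
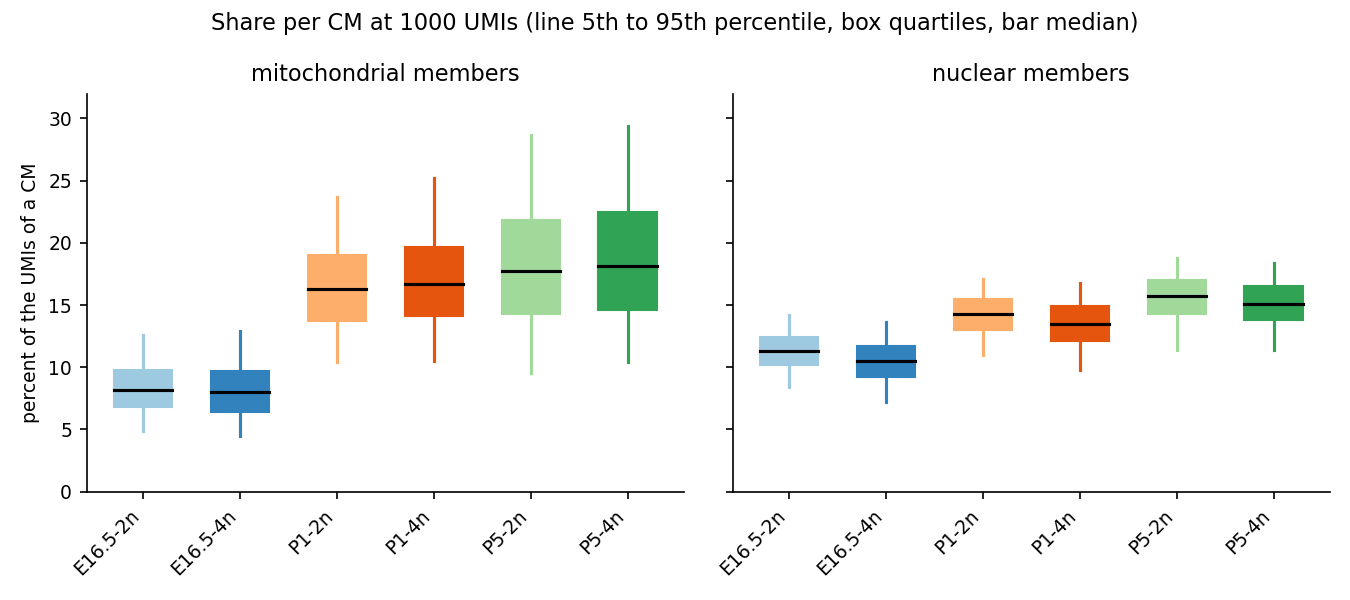
Share of the UMIs of a CM, at 1000 UMIs per CM, that came from mitochondrially encoded members (left) and nuclear members (right) in each library, with the median as a bar, the quartiles as a box and the 5th to 95th percentile as a line. Cells are not replicates. The mitochondrial boxes of P1 and P5 lie above those of E16.5, with medians of 16.3% to 18.1% against 8.0% and 8.20%.

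Within each library, CMs with a larger mitochondrial share also had more nuclear members among their other UMIs. Of every 1000000 UMIs that were not mitochondrial, the nuclear members took 110922 in the 25% of E16.5-2n CMs with the lowest mitochondrial share and 135140 in the 25% with the highest. In E16.5-4n the lowest and highest 25% had 98310 and 128737, at P1 the 2n CMs had 163324 and 175487 and the 4n CMs 151756 and 171328, and at P5 the 2n CMs had 181413 and 199054 and the 4n CMs 176710 and 197141. For complex II they were 3614 and 4040 in E16.5-2n but 3969 and 3728 in P5-4n. In each library the highest 25% had fewer UMIs per CM, with a median of 1904 against 2408 in E16.5-2n and 3568 against 5354 in P5-4n. Of every 1000000 UMIs that were not mitochondrial, it also had fewer from the markers of other cell types, 718 against 1841 in E16.5-4n. The part of these in the difference was not tested.

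The promoters of the nuclear members were searched for short words that stand for factors known to act on respiratory chain genes: GCGCATGC for NRF1, TCAAGGTCA for the estrogen-related receptors (ERR), CCGGAAGT for the ETS factor GABP and AAGATGGC for YY1, each on either strand. Windows of RefSeq on GRCm38.p6, from 250 bases before to 50 bases after the start of a gene, were found for 65 of 77 members. The NRF1 word was in 9 of 65 (13.8%) against 3.94% of 17492 protein-coding genes, the YY1 word in 11 (16.9%) against 3.57%, the ERR word in 2 (3.08%) against 0.377%, and the GABP word in 4 (6.15%) against 5.69%. Any of them was in 25 of 65 (38.5%) against 12.7%. Of the 24 with a window that were higher by 1.5-fold from E16.5 to P5 in 2n and 4n CMs, 12.5% held the NRF1 word and 16.7% the YY1 word, and of the other 41, 14.6% and 17.1% did. A match is a description of letters and not a binding site. The YY1 word holds the letters ATG of a start codon. In Ndufb8 and Ndufs4, among others, it lay within the 50 bases after the start of the gene. The part of start codons in its share was not tested.

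To show what such matches look like, the 100 bases before the start are printed for 3 members that were higher at P5 in both ploidies, 5′ to 3′ on the strand of the gene, with the matched word in capitals. In Ndufa11 (chr17:56717662-56717761, plus strand) the NRF1 word and its reverse complement overlap, in Uqcr11 (chr10:80406822-80406921, minus strand) the GABP word is marked, and in Atp5g3 (chr2:73911327-73911426, minus strand) the reverse complement of the ERR word. The window of Uqcr11 also holds the reverse complement of the NRF1 word. That match runs past the end of the printed bases and is not marked.
Ndufa11: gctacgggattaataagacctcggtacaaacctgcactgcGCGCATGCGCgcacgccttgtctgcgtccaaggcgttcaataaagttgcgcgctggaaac
Uqcr11: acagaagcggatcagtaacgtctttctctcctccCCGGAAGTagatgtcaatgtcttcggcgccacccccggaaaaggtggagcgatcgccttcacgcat
Atp5g3: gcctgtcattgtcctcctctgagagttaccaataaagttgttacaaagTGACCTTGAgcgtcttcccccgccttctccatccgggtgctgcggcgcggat

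Ndufa11 had 773, 1054 and 1510 CPM in 2n CMs at E16.5, P1 and P5 and 760, 1069 and 1417 CPM in 4n CMs, and Uqcr11 had 2417, 3284 and 3827 CPM in 2n CMs and 2238, 3322 and 3719 CPM in 4n CMs. Their levels thus followed the same order of ages as those of Atp5g3 above.

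Genes of the same machinery that the rule left out gave a mixed picture. Cycs, the electron carrier cytochrome c, had 1922, 2305 and 3386 CPM in 2n CMs at E16.5, P1 and P5 and 1872, 2143 and 3075 CPM in 4n CMs, log2 ratios from P1 to P5 of 0.55 and 0.52. Cyc1, the cytochrome c1 of complex III, had 1196 to 1439 CPM in all libraries. Atpif1, an inhibitor of the ATP synthase, had 1774 and 1720 CPM at E16.5 and 1506 and 1622 CPM at P5. Of 46 assembly factors tested, 3 were higher and 3 lower by 1.5-fold from E16.5 to P5 in 2n CMs and 6 higher and 0 lower in 4n CMs, where 6.55% and 5.71% of all genes were higher and 40.3% and 44.5% lower. The median log2 ratios of these factors were -0.11 and -0.08, against -0.45 and -0.51 for all genes. Uqcc2, an assembly factor of complex III, had 262 CPM at E16.5 and 477 CPM at P5 in 2n CMs, and Acad9, one of complex I, 15.6 and 9.71 CPM.

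Factors that copy mitochondrial DNA or transcribe, process and translate its RNA were followed as well, against the background above of 40.3% and 44.5% of all genes lower from E16.5 to P5. Of 34 tested, 1 was higher and 16 were lower by 1.5-fold from E16.5 to P5 in 2n CMs and 1 was higher and 10 lower in 4n CMs, with median log2 ratios of -0.56 and -0.34 against -0.45 and -0.51 for all genes. Lrpprc, which stabilises mitochondrial mRNAs, had 18.2 CPM at E16.5 and 30.8 CPM at P5 in 2n CMs, whereas Tfb1m, which modifies mitochondrial ribosomal RNA, had 8.34 and 3.79 CPM. Of 76 mitochondrial ribosomal proteins tested, 0 were higher and 8 lower in 2n CMs and 1 was higher and 4 lower in 4n CMs, with medians of -0.10 and 0.01. Their summed level lay between 10091 and 11043 CPM in the 6 libraries.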

How the data were processed

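The authors deposited unnormalized UMI counts for 6 libraries of 10x 3′ scRNA-seq, after demultiplexing, alignment by STAR to GRCm38 and counting by strand and cell calling with Cell Ranger, whose version is not given in the sources used here. A deposited table of the authors' own comparison of G2/M cells and a background gene list were not used here. From the counts, UMIs were summed over CMs of a library and divided by their total. Ratios of sums have exact binomial 95% intervals, which with 1 library per group cover counting error and not the spread between animals. Genes needed 100 UMIs in 2 libraries together and 1.5-fold. Named genes were the mt- genes, in each complex the 3 nuclear members of highest CPM, in each comparison the 3 highest and 3 lowest by ratio, the core, F1, c ring and Sdh genes, Ndufa4, Ndufa4l2, Ndufab1, Cyc1, Cycs, Atpif1 and up to 2 genes per direction of other lists, and any others were named after their values were seen. Members, lists and rules were chosen with earlier results of these data known. Doublets were neither called nor removed. One label field of E16.5-4n gives a slightly different age from its title, which was used. Alternatives changed the scaling, the CM filter, the depth per cell, the minimum and the fold. Scripts were tested on simulated data. Lengths and positions came from GENCODE vM21, promoters from RefSeq. Python 3.11.15 was used with numpy 2.4.6, scipy 1.17.1, pandas 2.3.3 and matplotlib 3.10.9.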

Additional observations from a re-analysis of the deposited data

Results flagged for a closer look

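For 3 nuclear members the step between ages went opposite ways in 2n and 4n CMs with intervals that excluded 0 on either side. The difference between the ploidies was not tested, as each ratio rests on 1 library per group, and the intervals cover counting error only. Cox7a2l, a supercomplex assembly factor, had a log2 ratio from E16.5 to P1 of 0.05 (0.01 to 0.09) in 2n CMs and of -0.05 (-0.09 to -0.01) in 4n CMs. Atp5a1, the alpha subunit of the ATP synthase, had a log2 ratio from P1 to P5 of -0.07 (-0.09 to -0.05) in 2n CMs and of 0.09 (0.07 to 0.11) in 4n CMs. Uqcrc2, a core protein of complex III, had -0.17 (-0.20 to -0.13) and 0.06 (0.02 to 0.09) over the same step. Median-of-ratios scaling, which adds 0.30 from E16.5 to P1 and 0.13 and 0.12 from P1 to P5, turned each pair except Uqcrc2 to 1 direction.

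The 423 cells outside the CM filter entered no comparison. In these cells the mitochondrially encoded genes took 10.7% of the UMIs, from 5.49% in E16.5-2n to 17.1% in P1-2n.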

How the results depend on the processing

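With 1 library per group, age and ploidy rest on single libraries, and no spread between animals can be given. UMIs read near the 3′ end do not measure protein, and the sums weigh abundant genes most. mt-Nd6 and Ndufa4l2 had at most 191 and 348 UMIs in a library, and their intervals are wide. The values move mainly with the total that UMIs are divided by. Of 72 recomputed log2 ratios of the mitochondrial set, 18 stayed within the counting interval, 52 moved beyond it and 2 turned direction, and of 180 counts of nuclear members, 143 stayed within 1.5 times and 37 did not. The cause was not tested. No paired analysis was possible because the litters that the 2n and 4n CMs of an age share were pooled within each library, and a fit of ploidy with the 3 ages as blocks was not run. The range of the mitochondrial set's log2 ratio over the alternatives was 0.97 to 1.27 in 2n and 1.04 to 1.35 in 4n CMs from E16.5 to P1, 0.12 to 0.25 and 0.07 to 0.22 from P1 to P5, 1.10 to 1.52 and 1.13 to 1.57 from E16.5 to P5, and -0.06 to 0.02, 0.02 to 0.11 and -0.01 to 0.04 from 2n to 4n at E16.5, P1 and P5.

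Values are listed in the order E16.5 to P1, P1 to P5 and E16.5 to P5, each for 2n then 4n CMs, followed by 4n against 2n at E16.5, P1 and P5, and values that did not move beyond counting error are left out. With median of ratios the mitochondrial log2 ratio was 1.27 and 1.35, 0.25 and 0.22, 1.52 and 1.57, and -0.06, 0.02 and -0.01, the last in the other direction, and 39 and 44, 2 and 2, and 56 and 63 nuclear members were higher and 0 lower from E16.5-4n to P1-4n. Of all genes tested, 11.1% and 14.2%, 9.99% and 7.15%, and 16.2% and 14.4% were then higher, and 15.4% lower from E16.5-4n to P1-4n. With a total without the mt- genes the mitochondrial log2 ratio was 1.11 and 1.18, 0.15 and 0.12, and 1.25 and 1.31, with 0.06 at P1 and 0.03 at P5, and 19 and 27 members were higher from E16.5 to P1 and 2 from P1-4n to P5-4n. Here 6.94% and 9.49% of all genes were higher from E16.5 to P1 and 5.40% from P1-4n to P5-4n. With a total without the 50 most abundant genes the mitochondrial log2 ratio was 1.20 and 1.28, 0.17 and 0.14, 1.37 and 1.42, and -0.05, 0.03 and 0.00, with 31 and 35, 1 and 2, and 52 and 52 members higher and 0 lower from E16.5-4n to P1-4n. The shares of all genes higher were 9.03% and 12.2%, 8.27% and 5.62%, and 11.9% and 10.5%, and 18.1% were lower from E16.5-4n to P1-4n. With each CM thinned to 1000 UMIs the mitochondrial log2 ratio was 1.06 from E16.5-4n to P1-4n, 0.15 and 0.13, 1.12 and 1.19, and -0.03, 0.05 and 0.04, with 0 members lower from P1-4n to P5-4n, 1 lower in 4n CMs at E16.5 and 0 higher at P1. In the same order, 13.6% and 1.78% of all genes were lower and 5.52% higher. With 2 UMIs of each CM marker the mitochondrial log2 ratio was 0.97 and 1.04 from E16.5 to P1, 0.13 from P1-2n to P5-2n and 0.05 in 4n CMs at P1. Without CMs that held a marker of other cells it was 0.97 and 1.06, 0.16 and 0.07, 1.13 and 1.13, with 0.02 at E16.5, in the other direction, and 0.11 at P1, and 0 members were lower from E16.5, and from P1, to a later age in 4n CMs, while 0 were higher in 4n than in 2n CMs at E16.5 and P1. Of all genes in 4n CMs, 34.8% were lower from E16.5 to P1, 8.90% from P1 to P5 and 41.5% from E16.5 to P5. The shares higher in 4n than in 2n CMs were 6.82% at E16.5 and 1.76% at P1. In these CMs Ndufa4l2 had fewer than 100 UMIs in each comparison named except 4n against 2n at E16.5 and was not tested. Its level in 4n CMs there was 11.9 CPM at E16.5, against 1.98 and 0.757 CPM at the later ages. With barcodes of 1 library the mitochondrial log2 ratio was 0.10 from P1-4n to P5-4n and 0.03 at P5. Without CMs of high mitochondrial share, over 3 median absolute deviations, which were 4.60% to 5.39% of CMs, it was 0.98 and 1.06, 0.12 from P1-2n to P5-2n and 1.16 from E16.5-4n to P5-4n, with -0.03 at E16.5 and 0.03 at P5. With no minimum of UMIs, 2 members were lower from E16.5 to P1 in 2n and in 4n CMs and 2 from E16.5-2n to P5-2n, 1 was lower in 4n CMs at P1, and 2 were higher from P1-4n to P5-4n. In the same order, 38.1%, 36.1%, 43.2% and 6.91% of all genes were lower and 10.8% higher. At 2-fold, 0 and 0 members were higher from E16.5 to P1, 0 lower from E16.5-4n to P1-4n, 0 higher from P1-4n to P5-4n, 0 higher in 4n CMs at E16.5, and 1 and 3 higher from E16.5 to P5. The shares of all genes in the same order were 1.98% and 2.88%, 11.6%, 2.40%, 4.64%, and 3.03% and 2.48%.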

Other observations

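CMs with a very high mitochondrial share were rare before birth. CMs with more than 30% of their UMIs from the 13 mt- genes made up 0.0175% of 2n and 0% of 4n CMs at E16.5, 1.14% and 0.969% of those at P1, and 3.47% and 4.05% of those at P5, without thinning. Among 3 lists of genes that serve the chain, the assembly factor Ttc19 of complex III had log2 ratios from E16.5 to P5 of 0.84 in 2n and 0.87 in 4n CMs, and Ndufaf7, which methylates a core subunit of complex I, had -0.67 and -0.58. Of the mitochondrial ribosomal proteins, Mrpl51 had 0.56 and 0.57 and Mrps28 0.53 and 0.59, whereas Mrps30 had -0.74 and -0.72. With median-of-ratios scaling, 0.43 is added to each of these.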
